A study of Homo sapiens with 16 samples.

Results

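The genes described here encode 3 proteins of telomerase (TERT, NOP10 and NHP2) and the 6 subunits of shelterin (TERF1, TERF2, TERF2IP, TINF2, ACD and POT1). They were taken by symbol from a table of counts per gene, and all 9 were found among its 58735 gene IDs. RNA was sequenced from 4 groups of 4 libraries, 16 in all: NT2/D1 cells (NTERA-2 clone D1, an embryonal carcinoma line) with a MIR9-2-5p mimic, NT2/D1 cells with a scrambled mimic, TCam-2 cells (a seminoma line) with the MIR9-2-5p mimic, and TCam-2 cells with the scrambled mimic. Both mimics were transfected, and cells were collected on day 3. The comparison of the MIR9-2-5p mimic with the scrambled one asked what this miRNA changes in each line. Each tumour type was represented by 1 line, so that line and tumour type cannot be told apart.

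Telomeres, the repeat-capped ends of chromosomes, shorten with each round of replication unless telomerase adds new repeats. TERT is the reverse transcriptase that copies the template RNA TERC, and NOP10 and NHP2 belong, with DKC1 and GAR1, to the H/ACA proteins that bind and stabilise TERC and many small nucleolar RNAs. Shelterin covers the repeats: TERF1 and TERF2 bind the double-stranded part, POT1 binds the single-stranded overhang, ACD (TPP1) joins POT1 to the rest and recruits telomerase, TINF2 holds the complex together, and TERF2IP (RAP1) rides on TERF2. Germ cells and pluripotent cells keep telomerase active, as most germ cell tumours do.

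The sequences below are those through which a miR-9-5p mimic could pair with a member, the mature miRNA and the longest match in each member that has a match of 7 bases. The miRNA is from RefSeq (GRCh38.p14, chr5:88666902-88666924, minus strand), with its seed, bases 2 to 8, in capitals. The matches are in the longest annotated 3' UTR of each gene (GRCh38, minus strand). The bases that pair with the seed, and in POT1 the A after them, are in capitals, with 10 bases on either side. The match in TERT is at chr5:1253287-1253293, position 435 of a UTR of 561 bases, and the match in POT1 is at chr7:124823312-124823318, position 644 of 1576.
hsa-miR-9-5p: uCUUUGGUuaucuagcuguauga
TERT site: atttggagtgACCAAAGgtgtgccctg
POT1 site: atgttatttgCCAAAGAcagatataaa

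TERT held a match to bases 2 to 8 of the miRNA (7mer-m8), and POT1 a match to bases 2 to 7 followed by A (7mer-A1). TERF1 and TERF2 held a match of 6 bases only, and NOP10, NHP2, TERF2IP, TINF2 and ACD held none. Among the 14239 genes tested in NT2/D1 that have an annotated 3' UTR, a 7mer-m8 was the best match in 10.5%, a 7mer-A1 in 10.0%, the 8mer in 5.23%, a 6mer in 21.8%, and 52.4% had none. Of the 2 members with a 7mer, TERT was lower with MIR9-2-5p in both lines, whereas POT1 was higher in TCam-2. Over all genes with a UTR, those called lower in NT2/D1 were 36.3% with an 8mer, 29.4% with a 7mer-m8, 31.4% with a 7mer-A1 and 28.3% with none. In TCam-2 these shares were 28.3%, 27.7%, 28.8% and 43.5%. A match is a description of these letters and was not tested as a site of action.

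Total counts ranged from 14167738 to 22427162 per library. Embryonal carcinoma markers summed to 2096 to 2149 counts per 1000000 (CPM) with MIR9-2-5p and 5069 to 5295 CPM with the scrambled mimic in NT2/D1, against 596 to 633 CPM and 906 to 952 CPM in TCam-2. Seminoma markers summed to 128 to 134 CPM and 136 to 149 CPM in NT2/D1, where SOX17 was under 1 CPM, against 1612 to 1748 CPM and 1417 to 1520 CPM in TCam-2. The lines thus carried the markers of their labels. Of the 8 fibroblast markers, DCN and FAP were under 1 CPM in all 4 groups, but the list was not silent. It summed to 602 to 690 CPM with MIR9-2-5p and 508 to 600 CPM with the scrambled mimic in NT2/D1. In TCam-2 the sums were 191 to 211 CPM and 470 to 490 CPM. Libraries differed in how well GC-rich genes were represented. This GC tilt, the median deviation of the 20% most GC-rich genes minus that of the 20% least GC-rich, ran from -0.68 to 0.07 on the log2 scale in the TCam-2 libraries with MIR9-2-5p and from 0.27 to 0.43 in the scrambled ones, and in NT2/D1 from -0.29 to 0.26 and from -0.48 to 0.23. Its part in the results was not tested as a cause, and values with the GC trend removed, a correction chosen after the tilt was seen, are given where they gain or end a call, turn a direction or move a value by over 1.5 times.

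On CPM per kb of annotated exon, the scale on which genes can be compared, NOP10 and NHP2 were the most abundant members in every group. NOP10 stood at 58.6 ± 2.83 with MIR9-2-5p and 49.0 ± 4.85 with the scrambled mimic in NT2/D1, and at 67.6 ± 3.28 and 63.2 ± 7.43 in TCam-2 (CPM per kb, SD, n = 4 each). TERT was the lowest member, at 0.713 ± 0.191 CPM per kb with MIR9-2-5p and 2.18 ± 0.473 CPM per kb with the scrambled mimic in NT2/D1, and at 1.253 ± 0.248 CPM per kb with MIR9-2-5p in TCam-2. The exception was the scrambled TCam-2 group, where POT1, at 1.62 ± 0.0705 CPM per kb, lay below TERT, at 2.38 ± 0.216 CPM per kb. On the length of the canonical transcript these ranges overlapped. In scrambled NT2/D1 cells the shelterin genes followed in the order TERF1, ACD, TERF2, TERF2IP, POT1 and TINF2, where TERF1 and ACD, TERF2 and TERF2IP, and POT1 and TINF2 were neighbours with overlapping ranges. In NT2/D1 cells with MIR9-2-5p the order was TERF2IP, ACD, TERF2, TINF2, POT1 and TERF1, with ACD and TERF2, and POT1 and TERF1, overlapping. The place of TERF1 depended on the length used. Per kb of canonical transcript it stood in NT2/D1 cells with MIR9-2-5p at 14.3, beside TERF2 at 14.2 and above POT1 at 7.47, and in scrambled ones at 52.0, above ACD at 23.2 without overlap (CPM per kb, means of 4).

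In NT2/D1 cells 3 members were higher and 3 lower with MIR9-2-5p at an edgeR adjusted p under 0.05, and 3 were not called. Of the 17586 genes tested 59.3% were called, 30.2% higher and 29.1% lower, so that the share of members called was near that of all genes. In TCam-2 cells 4 members were higher, 3 were lower and 2 were not called, where 66.3% of 16847 genes were called, 33.7% higher and 32.7% lower. The groups did not overlap for 5 members in NT2/D1, as for 52% of all genes tested, and for 7 in TCam-2, as for 59% of all genes. The median log2 fold change of the members was 0.07 in NT2/D1, and 0.11 in TCam-2 cells, beside -0.02 and 0.02 over all genes tested. TERT and ACD were lower and TERF2IP and TINF2 higher in both lines. The plot of CPM by library shows all 9 genes.

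**Figure D1:**
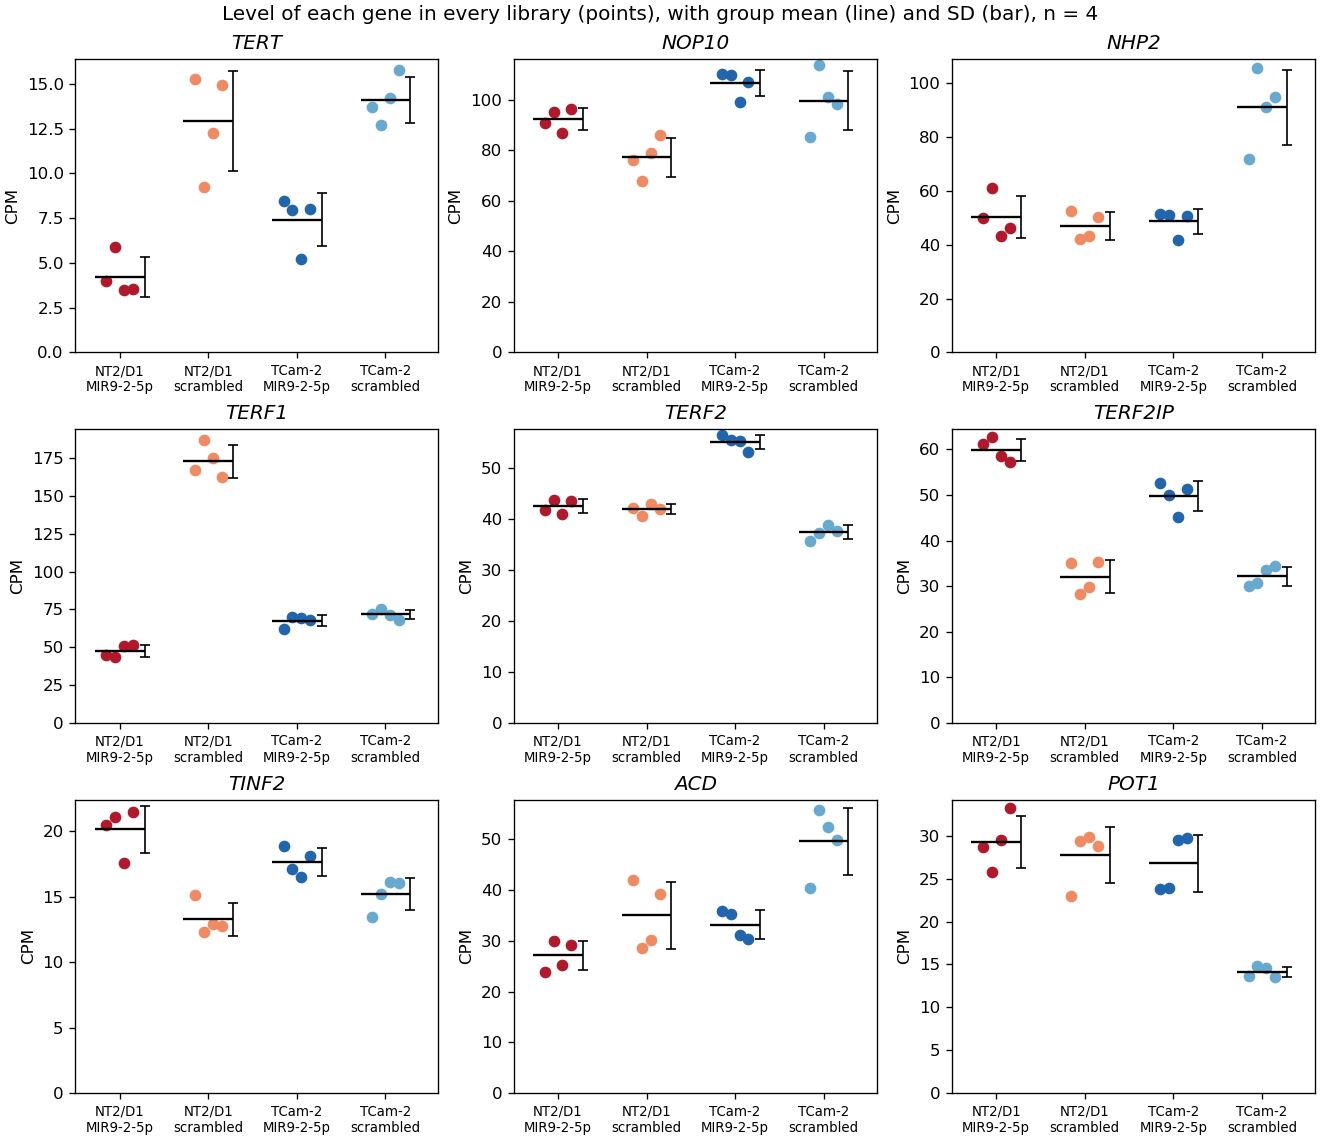
CPM of each gene (vertical axis, from 0) in every library of the 4 groups (horizontal axis), with the group mean as a line and the SD as a bar, n = 4. TERF1 stood at 43.6 to 51.3 CPM with MIR9-2-5p and at 162 to 187 CPM with the scrambled mimic in NT2/D1, and its groups overlapped in TCam-2, while for POT1 the separation lay in TCam-2.

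TERT, the catalytic subunit (chromosome 5, 1253147 to 1295068, minus strand, GRCh38), was at 4.00, 5.89, 3.48 and 3.53 CPM in NT2/D1 cells with MIR9-2-5p and at 15.28, 9.25, 12.3 and 14.9 CPM in those with the scrambled mimic. Every MIR9-2-5p library lay below every scrambled one. The log2 fold change was -1.63 (SE 0.18, edgeR adjusted p = 9.59e-07), 3.10-fold lower, which ranked 563 from the lowest of 17586 genes. In TCam-2 cells TERT was at 8.46, 7.96, 5.24 and 8.01 CPM with MIR9-2-5p and at 13.7, 12.7, 14.2 and 15.8 CPM with the scrambled mimic, again without overlap. There the log2 fold change was -0.90 (SE 0.14, edgeR adjusted p = 1.32e-05), 1.87-fold lower. With the GC trend removed it was -0.45 (SE 0.11, edgeR adjusted p = 8.78e-04) in TCam-2 and -1.57 in NT2/D1. These levels rest on 76 to 109 reads of TERT per MIR9-2-5p library and 152 to 282 per scrambled library in NT2/D1, and on 77 to 168 and 231 to 248 in TCam-2. TERC, the RNA partner of TERT, had 13 counts over all 16 libraries and was not tested. In RNA from whole cultures, fewer cells expressing a gene and less RNA per cell cannot be told apart. TERT shares 106 exon bases with a lncRNA on the other strand that was not analysed here.

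NOP10 (chromosome 15, 34339159 to 34343180, minus strand) was at 90.7, 95.3, 86.8 and 96.5 CPM with MIR9-2-5p and at 76.0, 67.7, 78.9 and 86.2 CPM with the scrambled mimic in NT2/D1. The ranges touched without overlapping, and the log2 fold change was 0.25 (SE 0.08, edgeR adjusted p = 0.0119). With upper-quartile factors it was 0.18 and no longer called (edgeR adjusted p = 0.0605). In TCam-2 NOP10 was at 99.1 to 110.3 CPM with MIR9-2-5p and at 85.2 to 114 CPM with the scrambled mimic and was not called (log2 fold change 0.11, edgeR adjusted p = 0.212, and -7.1e-05 with the GC trend removed). NHP2, its partner in the H/ACA core (chromosome 5, 178149463 to 178153894, minus strand), was at 51.5, 51.2, 41.8 and 50.6 CPM with MIR9-2-5p and at 72.0, 106, 91.4 and 94.9 CPM with the scrambled mimic in TCam-2. It fell by 0.88 on the log2 scale (SE 0.10, edgeR adjusted p = 3.61e-07), 1.85-fold lower, without overlap. In NT2/D1 NHP2 was at 43.3 to 61.1 CPM and 42.2 to 52.6 CPM and was not called (log2 fold change 0.08, edgeR adjusted p = 0.520). The last exons of NHP2 share 414 bases with RMND5B on the other strand. RMND5B changed by -0.88 (log2) in NT2/D1, and by -0.07 in TCam-2, unlike NHP2 in both. Reads were used for both genes as the authors counted them, and the strand setting is not given in the sources used here.

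TERF1, the double-strand binder that limits telomere length (chromosome 8, 73008856 to 73048123, plus strand), was at 44.7, 43.6, 50.9 and 51.3 CPM in NT2/D1 cells with MIR9-2-5p and at 167, 187, 175 and 162 CPM in those with the scrambled mimic. The groups lay far apart beside the spread within them. TERF1 fell by 1.86 on the log2 scale (SE 0.08, edgeR adjusted p = 4.98e-12), 3.64-fold lower, which ranked 379 from the lowest of 17586 genes. With a library left out the value stayed between -1.89 and -1.82. In TCam-2 TERF1 was at 62.1, 70.2, 69.3 and 67.9 CPM with MIR9-2-5p and at 72.2, 75.1, 71.5 and 67.8 CPM with the scrambled mimic, overlapping, and was not called (log2 fold change -0.08, SE 0.07, edgeR adjusted p = 0.335). With the GC trend removed it was called there at -0.27 (SE 0.06, edgeR adjusted p = 1.62e-04). The 7 annotated processed pseudogenes of TERF1 together had 220 counts, 0.831% of those of TERF1, so that few counts were assigned to these copies.

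TERF2, the other double-strand binder, which protects ends from being joined (chromosome 16, 69355567 to 69408571, minus strand), showed the opposite division between the lines. In TCam-2 it was at 56.6, 55.6, 55.4 and 53.2 CPM with MIR9-2-5p and at 35.7, 37.4, 39.0 and 37.7 CPM with the scrambled mimic. These groups were tight and apart, with a log2 change of 0.57 (SE 0.07, edgeR adjusted p = 8.39e-07), 1.49-fold higher. In NT2/D1 TERF2 was at 41.9, 43.7, 40.9 and 43.7 CPM with MIR9-2-5p and at 42.3, 40.6, 42.9 and 42.0 CPM with the scrambled mimic, with a log2 change of 0.01 (SE 0.07, edgeR adjusted p = 0.880). The ratio of TERF2 to TERF1 counts was 0.898 ± 0.0881 with MIR9-2-5p against 0.244 ± 0.0183 with the scrambled mimic in NT2/D1, and 0.821 ± 0.0596 and 0.523 ± 0.0319 in TCam-2 (SD, n = 4 each). The ratio was therefore higher with MIR9-2-5p in every library of both lines, with TERF1 falling in NT2/D1 and TERF2 rising in TCam-2.

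TERF2IP, which binds telomeres through TERF2 (chromosome 16, 75647773 to 75761872, plus strand), was at 61.2, 62.7, 58.6 and 57.2 CPM with MIR9-2-5p and at 35.0, 28.2, 29.8 and 35.3 CPM with the scrambled mimic in NT2/D1. It was 1.86-fold higher (log2 fold change 0.90, SE 0.09, edgeR adjusted p = 1.51e-07). In TCam-2 it was at 52.6, 49.97, 45.1 and 51.3 CPM with MIR9-2-5p and at 29.9, 30.8, 33.6 and 34.4 CPM with the scrambled mimic. It was 1.56-fold higher there (log2 fold change 0.64, SE 0.08, edgeR adjusted p = 9.92e-07), and in both lines the groups stood apart. TERF2IP was 1.41 ± 0.0684 times TERF2 with MIR9-2-5p and 0.764 ± 0.0800 times TERF2 with the scrambled mimic in NT2/D1, whereas in TCam-2, where both rose, the ratios were 0.902 ± 0.0641 and 0.859 ± 0.0382 (counts, SD, n = 4 each) and overlapped. TERF2IP shares 176 exon bases with KARS1 on the other strand, whose log2 fold change was 0.04 in NT2/D1, against -0.27 in TCam-2.

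TINF2, the subunit that bridges TERF1, TERF2 and ACD (chromosome 14, 24238286 to 24242663, minus strand), was at 20.5, 21.1, 17.6 and 21.5 CPM with MIR9-2-5p and at 15.1, 12.3, 12.9 and 12.8 CPM with the scrambled mimic in NT2/D1. It was 1.51-fold higher (log2 fold change 0.60, SE 0.10, edgeR adjusted p = 1.05e-04). In TCam-2 it was at 18.9, 17.1, 16.5 and 18.1 CPM with MIR9-2-5p and at 13.5, 15.2, 16.1 and 16.03 CPM with the scrambled mimic. The groups came close without overlapping, at a log2 change of 0.23 (SE 0.09, edgeR adjusted p = 0.0393). That call was lost in DESeq2 (adjusted p = 0.118), with RLE factors, with no filter, with all 16 libraries in 1 fit, and without any 1 of the libraries apart from MIR9-2-5p replicate 3 (edgeR adjusted p from 0.0540 to 0.138), whereas with the length trend removed the change was 0.41 (edgeR adjusted p = 6.85e-04). TINF2 shares 957 exon bases with GMPR2 on the other strand, whose log2 fold change was 0.40 in NT2/D1 but -0.32 in TCam-2.

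ACD (chromosome 16, 67657512 to 67660810, minus strand) was at 35.96, 35.2, 31.2 and 30.3 CPM with MIR9-2-5p and at 40.4, 55.8, 52.5 and 49.9 CPM with the scrambled mimic in TCam-2. It fell by 0.57 on the log2 scale without overlap (SE 0.09, edgeR adjusted p = 3.53e-05). With the GC trend removed the change was -0.19 (edgeR adjusted p = 0.0315), and ACD is, after TERT, the most GC-rich member, at 62.1% against 65.7%. In NT2/D1 ACD was at 23.9, 30.0, 25.3 and 29.3 CPM with MIR9-2-5p and at 42.1, 28.6, 30.1 and 39.3 CPM with the scrambled mimic. These groups overlapped, and the log2 fold change, -0.37 (SE 0.12, edgeR adjusted p = 0.0141), was not called without MIR9-2-5p replicate 1 (-0.32, edgeR adjusted p = 0.0597) or without scrambled replicate 1 (-0.27, edgeR adjusted p = 0.0600). ACD shares 58 exon bases with CARMIL2 on the other strand, whose log2 fold change was -1.90 in NT2/D1, against -1.20 in TCam-2.

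POT1, the single-strand binder and partner of ACD (chromosome 7, 124822386 to 124929983, minus strand), was at 23.8, 23.9, 29.6 and 29.8 CPM with MIR9-2-5p and at 13.7, 14.8, 14.6 and 13.6 CPM with the scrambled mimic in TCam-2. It was 1.91-fold higher (log2 fold change 0.93, SE 0.10, edgeR adjusted p = 2.53e-07), without overlap. In NT2/D1 it was at 28.7, 25.8, 29.5 and 33.2 CPM with MIR9-2-5p and at 22.9, 29.4, 29.9 and 28.9 CPM with the scrambled mimic, overlapping, with a log2 change of 0.07 (SE 0.10, edgeR adjusted p = 0.558). The ratio of POT1 to ACD counts in TCam-2 was 0.818 ± 0.171 with MIR9-2-5p against 0.288 ± 0.0337 with the scrambled mimic, and in NT2/D1 it was 1.09 ± 0.155 and 0.824 ± 0.228 (SD, n = 4 each). This ratio separated the groups in TCam-2 and overlapped in NT2/D1. The antisense POT1-AS1 shares 111 exon bases with POT1, and changed by -0.92 (log2) in NT2/D1 but by 1.59 in TCam-2. It had 327 counts over all libraries, beside 403 to 521 counts of POT1 in a single MIR9-2-5p library of TCam-2, and the part of shared reads in the change of POT1 was not tested.

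**Figure D2:**
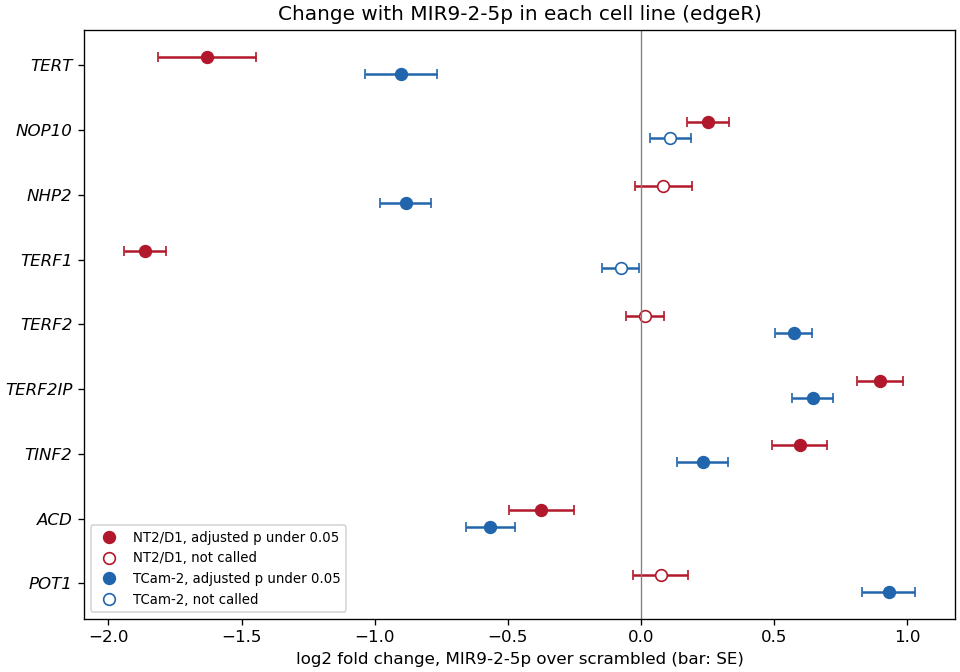
Log2 fold change of each gene, MIR9-2-5p over scrambled (horizontal axis), in NT2/D1 (red) and TCam-2 (blue), with the SE as a bar and open points for genes not called by edgeR. TERF1 stood at -1.86 in NT2/D1 but -0.08 in TCam-2, and POT1 at 0.07 in NT2/D1 but 0.93 in TCam-2.

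The response differed between the lines for 6 members by the interaction test over all 16 libraries, 2 with a higher and 4 with a lower change in NT2/D1, where 53.2% of 19576 genes were called, 27.9% higher and 25.3% lower. TERF1 differed most, by -1.77 on the log2 scale (SE 0.10, edgeR adjusted p = 2.57e-13). NHP2 differed by 0.99 (SE 0.16, edgeR adjusted p = 1.62e-05), POT1 by -0.84 (SE 0.15, edgeR adjusted p = 3.33e-05) and TERF2 by -0.54 (SE 0.09, edgeR adjusted p = 2.15e-05). These 4 were called in 1 line and not in the other. TERT, which fell in both lines, fell further in NT2/D1, with a difference of -0.71 (SE 0.24, edgeR adjusted p = 0.0163). That difference was -1.09 with the GC trend removed, and -0.69 and no longer called with the replicate number as a block (edgeR adjusted p = 0.0516). TINF2 differed by 0.38 (SE 0.14, edgeR adjusted p = 0.0231), a call lost with upper-quartile factors (0.26, edgeR adjusted p = 0.118) and under 4 other settings. For TERF2IP (0.27, edgeR adjusted p = 0.0530, but 0.33 and called with the GC trend removed), ACD (0.21, edgeR adjusted p = 0.300, or -0.15 with the GC trend removed) and NOP10 (0.16, edgeR adjusted p = 0.251) no difference was called.

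The scrambled libraries gave the levels of the members in the lines without the MIR9-2-5p mimic, and they are also the controls of the comparisons above. Of the members 3 were higher and 3 lower in NT2/D1 than in TCam-2, where 79.2% of 17740 genes were called, 39.8% higher and 39.4% lower, and the groups did not overlap for 4 members, as for 73.4% of all genes. TERF1 was 2.41-fold higher in NT2/D1, at 173 ± 10.7 CPM against 71.7 ± 3.02 CPM in TCam-2 (log2 fold change 1.27, SE 0.07, edgeR adjusted p = 1.47e-11). POT1 was 1.96-fold higher, at 27.8 ± 3.25 CPM against 14.1 ± 0.615 CPM (log2 fold change 0.97, SE 0.10, edgeR adjusted p = 9.06e-08). NHP2 was 1.93-fold lower in NT2/D1, at 47.1 ± 5.19 CPM against 91.0 ± 14.1 CPM (log2 fold change -0.95, SE 0.11, edgeR adjusted p = 2.22e-07). Beside these levels, which the comparisons with MIR9-2-5p share, the libraries with MIR9-2-5p had TERF1 at 47.7 ± 4.06 CPM in NT2/D1 and 67.4 ± 3.61 CPM in TCam-2, POT1 at 29.3 ± 3.05 CPM and 26.8 ± 3.34 CPM, and NHP2 at 50.2 ± 7.78 CPM and 48.8 ± 4.65 CPM. ACD (-0.50, edgeR adjusted p = 0.00125, or -0.25 with the GC trend removed) and NOP10 (-0.37, edgeR adjusted p = 0.00129) were lower in NT2/D1, with overlapping ranges, and TERF2 was slightly higher (0.16, edgeR adjusted p = 0.0459, lost in 5 of 8 fits with a library left out and, at 0.10, with the GC trend removed). TERT was at 12.9 ± 2.80 CPM in NT2/D1 and 14.1 ± 1.28 CPM in TCam-2 (log2 fold change -0.12, edgeR adjusted p = 0.445), a difference whose sign turned with the GC trend removed (0.26, edgeR adjusted p = 0.0223).

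By exon length the summed level of the 6 shelterin genes moved little beside its parts. Per kb of exon it was 40.5 ± 1.46 with MIR9-2-5p against 42.8 ± 2.26 with the scrambled mimic in NT2/D1, and 42.8 ± 1.20 and 39.0 ± 2.80 in TCam-2 (CPM per kb, SD, n = 4 each). Per kb of canonical transcript, which weighs TERF1 more, the sum in NT2/D1 was 93.2 ± 3.14 with MIR9-2-5p against 119 ± 3.36 with the scrambled mimic, without overlap. Within the sum per kb of exon TERF1 took 7.496% ± 0.725 with MIR9-2-5p and 25.8% ± 2.88 with the scrambled mimic in NT2/D1, and TERF2IP took 33.5% ± 1.75 and 16.9% ± 1.05. In TCam-2 ACD took 24.1% ± 1.51 with MIR9-2-5p and 39.4% ± 2.66 with the scrambled mimic, and POT1 took 7.21% ± 1.08 and 4.17% ± 0.230. With canonical lengths TERF1 took 15.4% ± 1.37 and 43.9% ± 3.71 in NT2/D1, a larger share on both sides in the same direction.

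**Figure D3:**
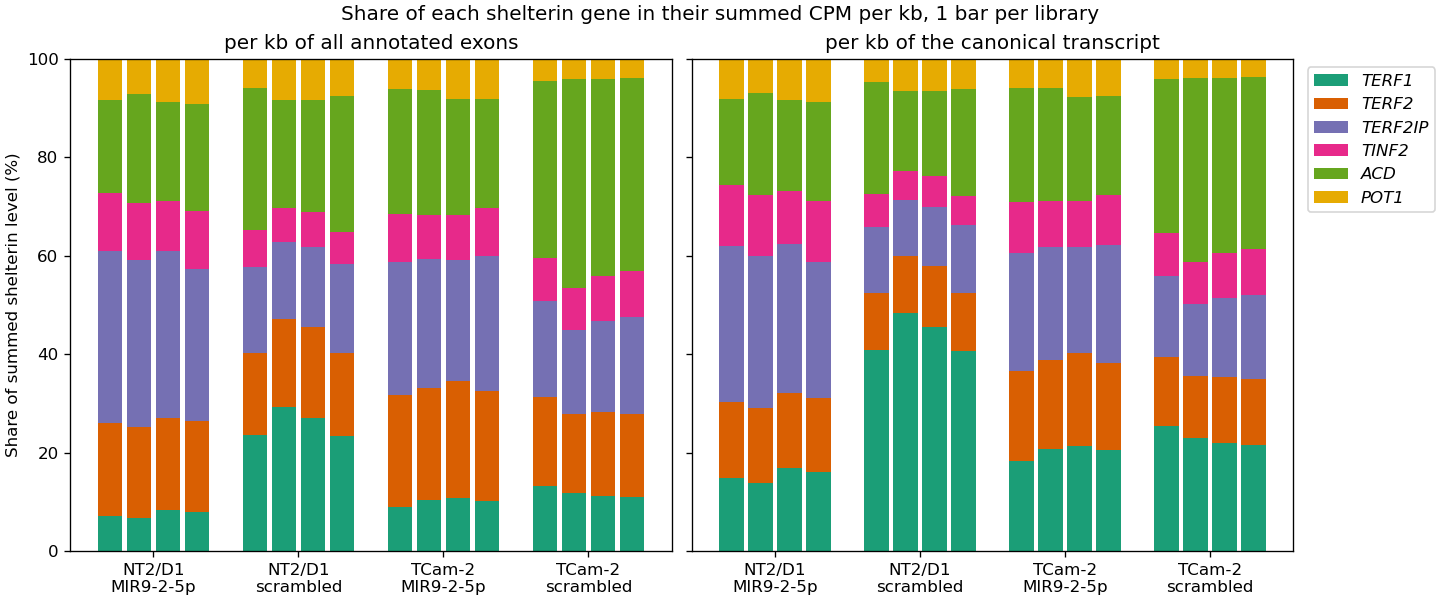
Share (percent, vertical axis) of each shelterin gene in their summed CPM per kb, 1 bar per library in replicate order, by annotated exon length (left) and canonical transcript length (right). TERF1 took 7.496% of the sum with MIR9-2-5p and 25.8% with the scrambled mimic in NT2/D1 by exon length, and ACD 24.1% and 39.4% in TCam-2.

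In 3 of the 4 groups the library with the lowest TERT was the one with the lowest GC tilt. The lowest TERT of the scrambled NT2/D1 group, 9.25 CPM in replicate 2, came from the library with the lowest tilt of that group (-0.48), and the lowest of the TCam-2 MIR9-2-5p group, 5.24 CPM in replicate 3, from the lowest tilt of all (-0.68). The highest TERT of the NT2/D1 MIR9-2-5p group, 5.89 CPM in replicate 2, came with the highest tilt there (0.26). In the scrambled TCam-2 group the lowest TERT (12.7 CPM, replicate 2) came instead with the highest tilt (0.43). Its other libraries had TERT at 13.7, 14.2 and 15.8 CPM at tilts of 0.27, 0.34 and 0.38. Without scrambled replicate 2 the log2 fold change of TERT in NT2/D1 was -1.76, and over all single libraries left out it ran from -1.82 to -1.54. The genes whose log2 CPM over the 16 libraries lay closest to that of TERT, of 13430 genes, were LSR (root mean square difference 0.19), CARMIL2 (0.20), SLC27A3 (0.21), PGGHG (0.22) and BICDL1 (0.23). LSR was at 30.6 ± 5.27 CPM with MIR9-2-5p against 88.2 ± 19.96 CPM with the scrambled mimic in NT2/D1, and at 64.0 ± 12.6 CPM and 119 ± 12.8 CPM in TCam-2 (SD, n = 4 each). These genes were chosen for their likeness to TERT in the same libraries, so that their fall with MIR9-2-5p is no separate result. All 5 had transcripts of 62.8% to 64.6% GC, beside 65.7% for TERT. The 20% most GC-rich genes had 58.3% or more, and the part of GC in this likeness was not tested.

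**Figure D4:**
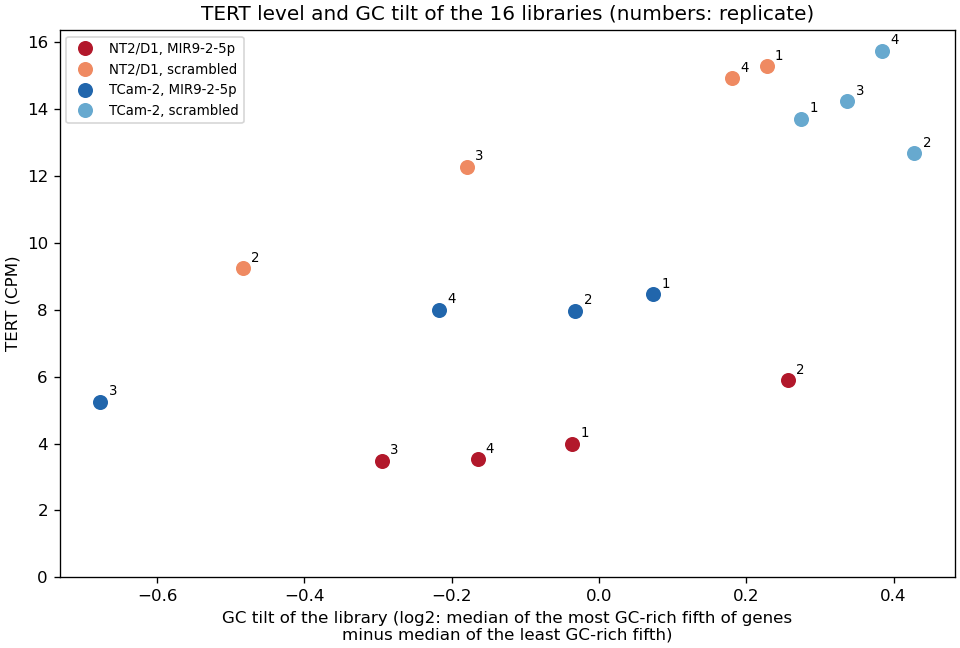
TERT in CPM (vertical axis, from 0) against the GC tilt of each library (horizontal axis, log2), with points coloured by group and numbered by replicate. In 3 of the 4 groups the lowest TERT came with the lowest tilt, and the NT2/D1 libraries with MIR9-2-5p stood at 3.48 to 5.89 CPM, below the 9.25 to 15.28 CPM of the scrambled ones.

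Around the members, the telomerase particle and its assembly factors (14 of 15 listed genes tested) had 2 genes higher and 7 lower in NT2/D1. In TCam-2 3 were higher and 8 lower, and the medians were -0.15 and -0.21. The counts of this and the following lists stand beside 59.3% of all genes called in NT2/D1, 30.2% higher and 29.1% lower. In TCam-2 66.3% of all genes were called, 33.7% higher and 32.7% lower. The medians over all genes were -0.02 in NT2/D1 and 0.02 in TCam-2. DKC1, the pseudouridine synthase of the H/ACA core, was at 100.5 ± 4.78 CPM with MIR9-2-5p against 159 ± 7.13 CPM with the scrambled mimic in NT2/D1 (log2 fold change -0.67, edgeR adjusted p = 2.39e-07), where NOP10 rose and NHP2 was not called. In TCam-2, where NHP2 fell, DKC1 was not called (log2 fold change 0.11, edgeR adjusted p = 0.160). SHQ1, the chaperone of DKC1, fell in both lines (-0.85 in NT2/D1, -0.46 in TCam-2), and TEP1, a telomerase-associated protein, rose in both (0.98 and 0.56). RUVBL2, an ATPase of the assembly, rose in NT2/D1 (0.27) but fell in TCam-2 (-0.91). CCT2, a subunit of the chaperonin that folds the TCAB1 protein, fell in TCam-2 (-0.46) and NVL rose there (0.46), while in NT2/D1 they were not called, at 0.10 and 0.04.

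Of 13 genes that process TERC, 2 were higher and 7 lower in NT2/D1 (median -0.25) and 6 higher and 3 lower in TCam-2 (median 0.08). TGS1, which caps TERC, fell in NT2/D1 (-0.60) but rose in TCam-2 (0.27). TOE1, a deadenylase, fell in both (-0.52 and -0.40), as did PABPN1, a poly(A)-binding protein (-0.54 and -0.67), and EXOSC3, of the exosome (-0.33 and -0.52). Of the cap-binding proteins, NCBP2 fell in NT2/D1 (-0.23) but rose in TCam-2 (0.96), and NCBP1 rose in TCam-2 (0.59) but was not called in NT2/D1 (-0.12). Of 17 tested genes of the CST complex and telomere replication, 2 were higher and 11 lower in NT2/D1 (median -0.37) and 3 higher and 7 lower in TCam-2 (median -0.22). POLA2, a subunit of the polymerase that fills in the telomeric strand, fell in both (-0.62 and -0.98), as did TIMELESS (-0.58 and -0.33), the helicase BLM (-0.63 and -0.22) and the nuclease FEN1 (-0.29 and -0.46).

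Of 21 telomere partners and tankyrases, 4 were higher and 8 lower in NT2/D1 (median -0.11) and 5 higher and 6 lower in TCam-2 (median -0.13). PIF1, a helicase that removes telomerase from ends in yeast, was at 33.8 ± 3.40 CPM with MIR9-2-5p against 92.9 ± 11.1 CPM with the scrambled mimic in NT2/D1 (log2 fold change -1.46, edgeR adjusted p = 1.17e-09). In TCam-2 it was at 24.4 ± 2.91 CPM and 86.0 ± 4.32 CPM (log2 fold change -1.80, edgeR adjusted p = 5.61e-12). PIF1 thus fell, with TERT, in both lines. TNKS2, a tankyrase that releases TERF1 from telomeres, rose in both (0.27 and 0.62). Of the nuclease subunits that meet TERF2 at telomeres, ERCC4 rose in both (0.73 and 0.51), and ERCC1 rose in NT2/D1 (0.62) and was not called in TCam-2 (-0.13). PML was not called in NT2/D1 (0.14) and fell in TCam-2 (-0.81). Of 27 genes of alternative lengthening and telomere chromatin 4 were higher and 11 lower in NT2/D1 (median -0.17), and of 26 tested in TCam-2 6 were higher and 10 lower (median 0.01). H3-3A, the histone variant placed at telomeres, fell in both (-0.48 and -0.96), as did its chaperone DAXX (-0.28 and -0.79). NR2F2, an orphan receptor whose reads may not be told apart from those of an antisense gene, was at 69.3 ± 4.71 CPM with MIR9-2-5p against 1.73 ± 0.462 CPM with the scrambled mimic in NT2/D1, and at 56.1 ± 4.45 CPM and 101 ± 6.48 CPM in TCam-2. ZSCAN4 was at 0.692 ± 0.114 CPM in NT2/D1 with MIR9-2-5p and had no count in the 4 scrambled libraries.

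Of the listed regulators of TERT transcription 9 of 31 were higher and 9 lower in NT2/D1 (median 0.02), and 8 of 30 were higher and 17 lower in TCam-2 (median -0.52). MYCN, an activator in the MYC family, fell in both, to 58.0 ± 4.96 CPM with MIR9-2-5p against 155 ± 11.1 CPM with the scrambled mimic in NT2/D1 (log2 fold change -1.42, edgeR adjusted p = 1.59e-10). In TCam-2 it was at 53.8 ± 5.88 CPM and 130 ± 5.90 CPM (log2 fold change -1.26, edgeR adjusted p = 2.12e-10). ETS1 rose in NT2/D1 (1.67) but fell in TCam-2 (-1.03), whereas SMAD3 (1.28 and 0.32) and NFX1 (0.22 and 0.80) rose in both. MEN1 was not called in NT2/D1 (-0.0051) and fell in TCam-2 (-1.01). Of the neighbours of TERT at the end of chromosome 5, 6 of 18 were higher and 5 lower in NT2/D1 and 7 of 19 higher and 4 lower in TCam-2, with medians of 0.06 and -0.04. There, TPPP (1.59 and 1.18) and CCDC127 (0.25 and 0.93) rose in both lines, and NKD2 (-2.21 and -0.67) and LPCAT1 (-0.21 and -0.66) fell in both. AHRR rose in NT2/D1 (2.66) and was not called in TCam-2 (0.39, edgeR adjusted p = 0.0507), and SLC6A3 fell in NT2/D1 (-1.19) but rose in TCam-2 (1.76). CLPTM1L, next to TERT, was at 81.5 ± 4.24 CPM with MIR9-2-5p against 87.5 ± 9.44 CPM with the scrambled mimic in NT2/D1 and was not called (edgeR adjusted p = 0.273). It is named outside the rule for named genes, after its value was seen.

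Of 7 meiotic telomere genes, 3 were tested in NT2/D1, with 2 higher and 0 lower, and 4 in TCam-2, with 2 higher and 2 lower. SUN2, which tethers telomeres to the nuclear envelope, rose in NT2/D1 (0.63) and fell in TCam-2 (-0.71), whereas SUN1 rose in both (0.23 and 0.36). SPDYA, a CDK activator needed at meiotic telomeres in mouse, was not called in NT2/D1 (-0.52, edgeR adjusted p = 0.217) and fell in TCam-2 (-0.96). KASH5, the meiotic linker to dynein, was at 1.73 ± 0.144 CPM with MIR9-2-5p against 0.141 ± 0.0905 CPM with the scrambled mimic in TCam-2. In NT2/D1, where KASH5 was not tested, it was at 0.0475 ± 0.0549 CPM and 0.253 ± 0.256 CPM. It had only 154 counts over all libraries. Of 20 proliferation genes 12 were lower and 1 higher in NT2/D1 (median -0.23), and 18 were lower and 1 higher in TCam-2 (median -0.83). MCM6 (-1.03 and -0.57), MCM5 (-0.95 and -1.35) and AURKB (-0.84 and -1.62) fell in both, MCM3 fell in NT2/D1 (-0.85) and was not called in TCam-2 (0.02), and CCNB1 was not called in NT2/D1 (-0.11) and fell in TCam-2 (-1.13). In each line more of the listed proliferation genes were thus lower than higher. In the interaction test 15 of the 20 had a higher and 3 a lower change in NT2/D1 (median 0.52). Of all 19576 genes in that test 27.9% were called higher and 25.3% lower, with a median of 0.00053. The difference of TERT in the same test was -0.71. Embryonal carcinoma markers were lower for 7 of 7 in NT2/D1 and 3 of 5 in TCam-2. The part of proliferation genes and of these markers in the fall of TERT was not tested.

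Fibroblast and mesenchyme markers moved in opposite directions in the lines. Of the fibroblast markers 5 of 6 tested were higher and 1 lower in NT2/D1, where they summed to 602 to 690 CPM with MIR9-2-5p against 508 to 600.4 CPM with the scrambled mimic, and 5 of 6 were lower in TCam-2, at 191 to 211 CPM against 470.4 to 489.9 CPM. Muscle and mesenchyme markers, among which MYOG had no count in any group, were higher for 4 of 5 in NT2/D1, at 289 to 343 CPM against 77.9 to 99.2 CPM, and lower for 3 of 3 in TCam-2, at 92.2 to 114 CPM against 179 to 207 CPM. Extraembryonic markers were higher for 3 of 4 in NT2/D1, at 30.2 to 36.7 CPM against 8.93 to 12.9 CPM, and in TCam-2 2 of 6 were higher and 3 lower. Neural markers were higher for 2 of 3 in NT2/D1 and 1 of 2 in TCam-2, with NEUROD1 and NEUROG2 under 1 CPM in all 4 groups. The part of these markers in the changes of TERF1, POT1 and NHP2, which differed between the lines, was not tested.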

How the data were processed

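NT2/D1 and TCam-2 cells received a MIR9-2-5p or scrambled mimic, with 4 replicates per group that the methods call biological. The deposited values are unnormalised counts of reads per gene from featureCounts, after trimming (Trim Galore and cutadapt) and alignment with STAR to GRCh38, by the submitters' notes. Neither the annotation release nor the strand setting is given in the sources used here. Positions, lengths and UTRs came from GENCODE release 44, which matched 58207 of 58735 IDs.

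edgeR 4.0.16 in R 4.3.3 was fitted with TMM sizes, its low-count filter (minimum count 10, total 15), robust quasi-likelihood dispersions and p-values adjusted by Benjamini-Hochberg over all genes, called at 0.05. Each line was fitted alone, the difference between lines as an interaction over 16 libraries, and scrambled NT2/D1 over scrambled TCam-2. CPM used TMM sizes over all libraries, from reads of the genes kept by the filter (listed genes and markers, from reads of all genes). DESeq2 1.42.0 and other settings were alternatives. Scripts were tested on simulated counts. Replicates of a group differed by more than sampling noise. Named were all members, 3 genes of each list with the smallest adjusted p per line, the 5 genes most like TERT, and overlapping genes. Members and lists were chosen with earlier results of these data known.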

Additional observations from a re-analysis of the deposited data

Results flagged for a closer look

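The change with MIR9-2-5p was unequal in NT2/D1 and TCam-2 cells in the interaction test (edgeR, adjusted p under 0.05) for 6 of the 9 genes. Of all 19576 genes tested 53.2% were called, so that the share of members was near that of all genes. The log2 difference, NT2/D1 minus TCam-2, was -1.77 for TERF1, 0.99 for NHP2, -0.84 for POT1, -0.71 for TERT, -0.54 for TERF2 and 0.38 for TINF2. With the replicate number as a block that of TERT was not called (-0.69, edgeR adjusted p = 0.0516).

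In 3 of 36 groups of 4 libraries, 1 value stood apart from the others of its group by Dixon's criterion, where chance gives about 1 in 20. TERT at 5.24 CPM and NHP2 at 41.8 CPM were both low in MIR9-2-5p replicate 3 of TCam-2, the library with the lowest GC tilt. POT1 was low, at 22.9 CPM, in scrambled replicate 1 of NT2/D1. Without that TCam-2 replicate the log2 fold changes were -0.77 for TERT and -0.82 for NHP2, and without that NT2/D1 replicate the change of POT1 was -0.0060.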

How the results depend on the processing

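With a fold of 1.5 as minimum, called genes numbered 3907 of 17586 (NT2/D1), 4178 of 16847 (TCam-2), 5239 of 19576 (difference between lines) and 9206 of 17740 (scrambled NT2/D1 over scrambled TCam-2). In the same order, 1, 1, 1 and 2 members were called higher and 2, 2, 1 and 1 lower. In the difference between lines 1 member was called higher with upper-quartile factors or a mean count of at least 100, and 1 to 3 with a library left out. The sign turned, between values of which only the first was called, for scrambled TERT over the lines (0.26 with the GC trend removed, -0.18 to 0.038 with a library left out), scrambled TERF2IP over the lines (0.0056 with RLE factors, 0.057 with upper-quartile factors, 0.032 with no filter, 0.050 with a mean count of at least 100, 0.12 with the length trend removed, -0.046 to 0.083 with a library left out), TERF2 in NT2/D1 (-0.059 with upper-quartile factors, -0.018 with a mean count of at least 100), NOP10 in TCam-2 (-7.1e-05 with the GC trend removed) and the difference of ACD (-0.15 with the GC trend removed). With a library left out NHP2 in NT2/D1 ran from -0.018 to 0.15 and POT1 in NT2/D1 from -0.0060 to 0.14.

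The difference of TINF2 was lost with upper-quartile factors (0.26, edgeR adjusted p = 0.118), a mean count of at least 100, the GC or the length trend removed, and without scrambled TCam-2 replicate 3 or 4 (edgeR adjusted p = 0.0597 and 0.0568). That of TERF2IP was called with the GC trend removed (0.33) and without any 1 of 5 libraries. NOP10 between the scrambled groups was lost with the length trend removed (-0.15), and its difference was then called (0.39). Upper-quartile factors moved the median of all genes in the difference to -0.12. Under other settings 309 values of members kept direction and side of the threshold, 29 lost a call, 3 gained 1 and 10 turned, and with a library left out 331 kept both, 16 lost a call, 6 gained 1 and 7 turned.

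Same-numbered libraries did not vary together (correlation of their deviations from the group means -0.44 to 0.15). With 4 libraries per group this cannot show whether the replicates were paired. With the replicate number as a block 9555, 10819, 9827 and 13658 genes were called, the difference of TERT was -0.69 (edgeR adjusted p = 0.0516), TINF2 in TCam-2 was 0.23 (0.0731) and TERF2 between the scrambled groups 0.16 (0.0794). No other call of a member changed. TERC, with 13 counts over all libraries, was too low to test.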
